A study of Homo sapiens with 16 samples.

Results

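In K562 cells, 9013 promoter regions carried a peak of acetylated histone H3 lysine 27 (H3K27ac) in all 14 peak lists of an antibody titration experiment. They were found by merging, across the lists, peaks with a q-value of at most 1% that overlapped or touched, which gave 170159 merged regions. A merged region was kept when it held a peak from every list, was under 8000 bp wide and came within 1 kb of the transcription start site (TSS) of a protein-coding gene. The regions were thus chosen by the peaks measured in every list and by their width. The fold enrichment and covered length tested below come from the same peaks and are not independent of that choice. The share called over all regions with a peak in every list therefore stands beside the main counts of calls. The kept regions made up 48.8% of the 18467 regions on chromosomes 1 to 22 and X with a peak in all 14 lists, here called common regions, and lay near the TSSs of 8746 of 19630 protein-coding genes, or 44.6%.

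K562 is an established human chronic myelogenous leukemia cell line. ChIP reactions held 7 amounts of DNAchrom, the DNA content of the soluble chromatin, that doubled from 0.31 to 20 µg, and an antibody to H3K27ac (Abcam ab4729). In the fixed arm every reaction received 0.25 µg of antibody, which put the titer, the antibody per DNAchrom relative to the optimum the study calls titer 1, at 32, 16, 8, 4, 2, 1 and 0.5, and in the normalized arm the antibody was scaled so that all 7 reactions were at titer 1. There was 1 library per condition, 10-T1a and 10-T1b being the same condition in the 2 arms, each arm had its own input library, and titer and DNAchrom cannot be told apart within the fixed arm. No lists were made for the input libraries, no label says that the libraries came from separate cultures, and p-values therefore measure only the spread of these libraries around a fitted line.

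H3K27ac is placed on nucleosomes by the acetyltransferases p300 and CBP and marks active promoters and enhancers. At an active promoter the DNA just upstream of the TSS is kept free of nucleosomes by bound transcription factors and the preinitiation complex, and the mark sits on the nucleosomes at either side. Most promoters of broadly used genes lie in CpG islands, stretches rich in CG dinucleotides, and hold binding sequences for factors such as SP1 (the GC box), NF-Y (CCAAT), ETS proteins, NRF1 and YY1, whereas a TATA box is more usual at tissue-restricted and inducible genes.

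The bases before the start of 7 genes are shown to make this composition visible. The first 5 had the highest mean fold enrichment among regions with a single TSS and a match to a given motif, and they were picked with the levels in view. MAT2A, the gene for methionine adenosyltransferase 2A (chr2:85539018-85539167, plus strand), had a TATA box, a CCAAT box and a pair of GC boxes. XPOT, the tRNA export factor (chr12:64404242-64404391, plus strand), had a pair of ETS motifs, and FADD, the adaptor of death receptors (chr11:70203146-70203295, plus strand), had an NRF1 and a GATA motif. DUSP1, a stress-inducible phosphatase (chr5:172771196-172771345, minus strand), had a cAMP response element, an E-box and a TATA box, and PSMB5, a proteasome subunit (chr14:23035221-23035370, minus strand), had a YY1 motif. NUCKS1, a nuclear DNA-binding protein (chr1:205750183-205750332, minus strand), and LY6G6F, a member of the LY6 family (chr6:31706716-31706865, plus strand), are shown as a strong promoter that moved steeply with titer and as one of the weakest. Each sequence is 150 bases from RefSeq (GRCh38.p14), 5′ to 3′ on the gene's strand, ending at the base before the start, and capitals mark matches to any of the 12 motifs searched.
MAT2A: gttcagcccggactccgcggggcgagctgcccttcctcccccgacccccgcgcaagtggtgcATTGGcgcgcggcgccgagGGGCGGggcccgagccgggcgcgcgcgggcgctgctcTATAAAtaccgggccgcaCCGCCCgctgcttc
XPOT: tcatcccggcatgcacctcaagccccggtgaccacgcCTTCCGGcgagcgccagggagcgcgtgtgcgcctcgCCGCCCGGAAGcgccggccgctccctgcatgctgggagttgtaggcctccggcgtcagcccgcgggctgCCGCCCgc
FADD: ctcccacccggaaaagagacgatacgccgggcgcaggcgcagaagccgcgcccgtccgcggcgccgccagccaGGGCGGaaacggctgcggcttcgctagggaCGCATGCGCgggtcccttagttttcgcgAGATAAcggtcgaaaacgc
DUSP1: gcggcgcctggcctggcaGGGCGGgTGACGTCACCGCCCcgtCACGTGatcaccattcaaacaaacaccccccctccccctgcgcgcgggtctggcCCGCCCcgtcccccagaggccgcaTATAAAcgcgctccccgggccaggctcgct
PSMB5: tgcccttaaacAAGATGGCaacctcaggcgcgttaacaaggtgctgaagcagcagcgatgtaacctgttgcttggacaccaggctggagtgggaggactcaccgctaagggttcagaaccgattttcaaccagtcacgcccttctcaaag
NUCKS1: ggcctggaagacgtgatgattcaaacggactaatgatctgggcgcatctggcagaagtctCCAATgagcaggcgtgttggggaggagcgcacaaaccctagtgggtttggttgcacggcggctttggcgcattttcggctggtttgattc
LY6G6F: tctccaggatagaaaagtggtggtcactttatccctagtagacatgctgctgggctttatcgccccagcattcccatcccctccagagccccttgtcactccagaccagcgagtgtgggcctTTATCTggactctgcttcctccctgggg

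The matches lay at different distances from the start. In MAT2A the CCAAT box began 88 bases, the TATA box 32 bases and the GC boxes 69 and 14 bases before the start. In FADD the NRF1 motif began 47 bases and the GATA motif 19 bases before it. In DUSP1 the cAMP response element began 125 bases and the E-box 108 bases before it.

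H3K27ac covered the promoters in 2 blocks with a gap at the start. A base 200 bp downstream of the TSS was under a peak in 93.8% of the 8746 genes in 10-T1a, and a base 400 bp upstream in 77.0%. Coverage dropped to 42.6% at 100 bp upstream, and the TSS base itself was covered in 50.02%. The same positions of both blocks and the gap were found in 10-T1b, with 94.1% downstream, 78.6% upstream and 43.4% at 100 bp upstream. In all 14 lists the highest coverage lay 200 bp downstream and the upstream maximum 400 bp upstream, and the minimum lay 50 or 100 bp upstream.

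**Figure D1:**
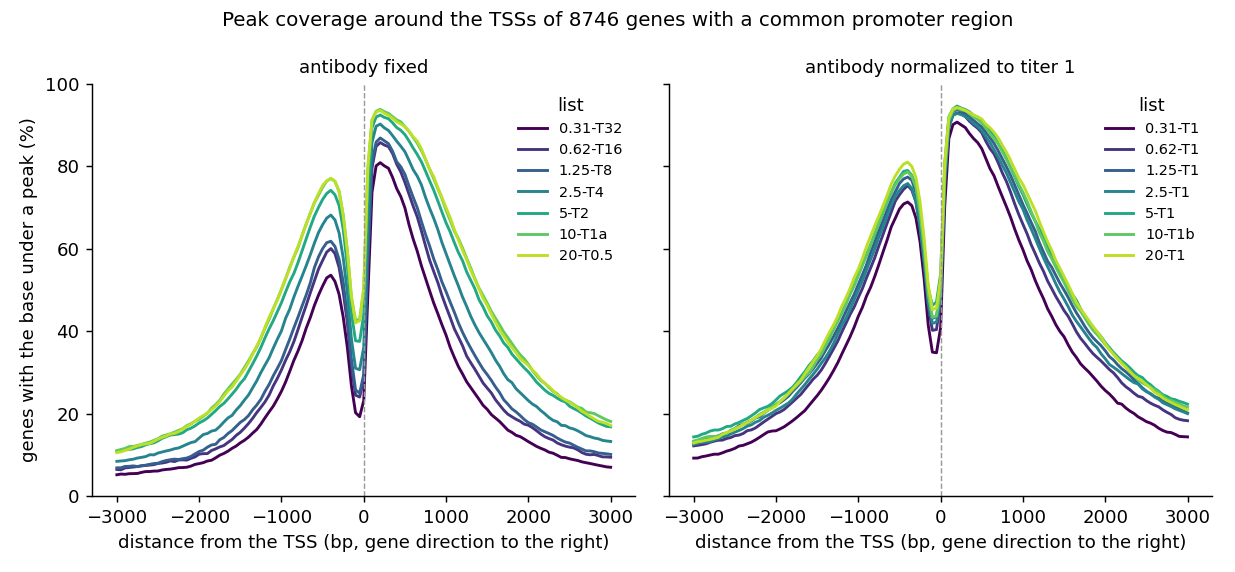
Share of 8746 genes with a common promoter region (y axis, percent) whose base at a given distance from the TSS (x axis, bp, in the direction of the gene) lay under a peak, 1 line per list, fixed antibody at left and normalized antibody at right. All lines have a downstream maximum at 200 bp and an upstream maximum at 400 bp, and at the gap 0.31-T32 falls to 19.3% and 10-T1a to 42.6%.

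Coverage at the start was lowest at high titer. The TSS base was under a peak in 23.2%, 28.4%, 29.5%, 36.2%, 44.1%, 50.02% and 50.7% of genes in the fixed arm from titer 32 to titer 0.5. In the normalized arm it was covered in 40.8% of genes at 0.31 µg and in 47.5% to 53.8% from 0.62 µg upward. In the study's mapping results 0.31-T1 had the lowest share of uniquely mapped read pairs of the 14 libraries. Any effect of this on its values was not tested. The downstream block kept most of its coverage, with 80.8% at 200 bp downstream in 0.31-T32, while the upstream block was covered in 53.6% at 400 bp.

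The strongest summit of a region tended to lie just downstream of the start. The median position of the summit, counted from the nearest TSS, was 174 to 211 bp downstream over the 14 lists. In 10-T1a, 49.2% of regions had it within the first 400 bp downstream, 22.2% between 800 and 200 bp upstream, and 2.73% in the last 200 bp before the TSS. In 4847 regions (53.8%) the summit was downstream in all 14 lists, in 1638 (18.2%) it was upstream in all 14, and in 2528 (28.0%) it changed side between lists. Within a region the positions of the 14 summits spanned a median of 624 bp (quartiles 342 and 1070 bp).

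For many genes both blocks were separate regions. The TSS lay inside a region for 6286 genes (71.9%) and between a region on each side for 1056 genes (12.1%). For 1025 genes (11.7%) the only region lay downstream and for 379 (4.33%) upstream. PABPC1, the cytoplasmic poly(A)-binding protein, and SMARCA4, the ATPase of the BAF chromatin remodelling complex, were both used by the study as positive PCR loci. PABPC1 had its start between a region on each side, at chr8:100718001-100722069 downstream and chr8:100722230-100724315 upstream. SMARCA4 had its start inside a region, chr19:10960921-10965420, with another upstream at chr19:10958702-10960692.

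The depth of the gap varied with promoter type. In 10-T1a the TSS base was under a peak in 42.6% of the 1648 genes of divergent promoters, where the start of an oppositely directed gene lies upstream, against 49.7% of the 6141 genes of regions with a single TSS. At divergent promoters the upstream block was covered in 87.1% of genes at 400 bp, against 74.0% at single starts. Of the classes compared, genes with an NRF1 motif had the lowest coverage at the start, with 30.1% of 312 TSS bases under a peak in 10-T1a and 9.94% in 0.31-T32. Those with an ETS motif had 43.2% of 1552 and those with a match to the TATA box letters 47.4% of 333. The 201 genes with few CG dinucleotides, an observed over expected CpG ratio under 0.3, had no such gap. Their coverage in 10-T1a was 55.2% at 400 bp upstream, 57.2% at 100 bp upstream, 59.2% at the TSS and 68.7% at 200 bp downstream. These classes were compared by their values alone, and differences between them were not tested.

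The regions had a median width of 2570 bp (quartiles 1674 and 3921 bp, range 254 to 7999 bp), against 3374 bp for the other common regions. The others had no width limit and included 670 promoter regions of 8000 bp or more. This difference is therefore set in part by the rule. A single TSS came within 1 kb of 7370 regions, 2 of 1571, 3 of 70 and 4 of 2 regions. Among those with 2, 1070 were divergent, 353 convergent and 148 on the same strand. The number of peaks per region averaged 1.71 to 2.02 in the fixed arm and 1.59 to 1.80 in the normalized arm. By chromosome, the share of genes with such a region ran from 27.3% on chromosome X to 50.8% on chromosome 14.

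Values at the limits of the rule are given as a description. The 3 widest were those of MAN2A2 (7999 bp), ARMC5 (7987 bp) and MED16 (7981 bp), with geometric mean fold enrichments over the 14 lists of 12.8, 12.4 and 13.2. The 3 regions just beyond the limit, at SDE2 (8004 bp), GPSM1 (8007 bp) and the start shared by COMMD3 and BMI1 (8008 bp), had 14.6, 10.8 and 13.7. The regions farthest from their TSS, at CSTB (999 bp), ATP2B4 (996 bp) and ADCK5 (991 bp), had mean fold enrichments of 5.13, 4.52 and 7.28, and those just outside, near S1PR4 (1001 bp), GALNT1 (1009 bp) and CSF2 (1016 bp), had 6.10, 5.40 and 5.30. In 637 of the 9013 regions the weakest list had a -log10 q under 3, the lowest being 2.01. A further 817 promoter regions under 8000 bp had a peak in 13 lists, and 388 of them were missing from 0.31-T32, 159 from 0.62-T16, 92 from the library at titer 8 and 76 from 0.31-T1, while the other titer 1 libraries each lacked 4 to 15.

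Marker genes were used to check the cell line. Of 31 erythroid and progenitor marker genes, 11 had a region of this kind and 13 a wider one of 8000 bp or more in all 14 lists, where 8746 and 793 of all 19630 genes did. The wider ones included GATA1, TAL1, KLF1 and GATA2, the transcription factors of the lineage. Among the 11 were GFI1B, another factor of the lineage, ALAS2, the first enzyme of erythroid heme synthesis, EPOR (the erythropoietin receptor) and the globin genes HBZ, HBA1, HBG1 and HBG2. The globin copies HBA1 and HBA2 and HBG1 and HBG2 are nearly identical, and the division of reads between them is uncertain. HBG1 and HBG2 had the same fold enrichments (5.19 in 0.31-T32 and 13.4 in 10-T1a). The 11 genes may therefore rest on fewer regions. Peaks near the start were found in 13 lists for SLC4A1, 11 for HBE1, 9 for KIT and 1 for HBA2. BCL11A, the repressor of fetal globin, ANK1 and EPB42 had no peak within 1 kb of the start in any list.

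Markers of other cell types were mostly without such a region. None of 6 liver and none of 6 neuron genes, which included the PCR locus taken as negative, MYT1, had a peak within 1 kb in any of the 14 lists. None of 7 T cell genes had a common region, although 4 had a peak in 1 to 12 lists. Of 5 B cell genes CD79A had one, with a mean fold enrichment of 7.25, and of 6 muscle genes MYH7, with 8.36. The strongest MYH7 summit in 10-T1a lay at -3005 bp from its start.

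Gene groups with basic cell functions are given beside the 44.6% of all protein-coding genes that had such a region. All 8 subunits of the cytosolic chaperonin, which folds actin and tubulin, and all 6 of the replicative helicase MCM2 to MCM7 had a common promoter region. So did 20 of 23 translation initiation factors, 18 of 20 aminoacyl-tRNA synthetases and 18 of 20 spliceosome genes. The count was 8 of 12 for the subunits of RNA polymerase II and 8 of 15 for glycolysis. Of the synthetases the other 2, FARSA and QARS1, and of the spliceosome the other 2, SF3A2 and SF3B3, had regions of 8000 bp or more. Of the initiation factors EIF3B had a wide region, EIF2S1 had peaks in all 14 lists that did not merge into 1 common region, and EIF3C had no peak within 1 kb. The missing polymerase subunits were POLR2A and POLR2L (wide), POLR2K (peaks in 14 lists that did not merge) and POLR2J (no peak within 1 kb). In glycolysis 5 genes, GPI, TPI1, GAPDH, ENO1 and LDHA, had wide regions, PGK1 had peaks in 13 lists and HK1 had none at the start used. These lists were chosen with earlier results of the data known, and 1 start, the 5′ end of the annotated gene, was used for each gene.

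Fold enrichment, the signal of a peak over its input as the authors' peak caller gave it, was read in each list from the strongest peak of a region. The median over the 9013 promoters was 6.72, 7.37, 7.72, 8.84, 10.2, 12.0 and 12.7 in the fixed arm from titer 32 to titer 0.5. In the normalized arm it was 10.2 at 0.31 µg, 10.9, 11.2, 10.7, 11.3 and 11.6 at the amounts between, and 12.6 at 20 µg. The fixed libraries of titer 2 and above lay under all 7 normalized ones, and those at titer 1 and 0.5 lay above all but the highest normalized one or above all of them. The median of the 9454 other common regions was lower in every list. It ran from 5.68 in 0.31-T32 to 9.79 in 20-T0.5 and from 8.40 to 10.4 in the normalized arm. Among them, the 670 promoter regions of 8000 bp or more had medians of 8.12 in 0.31-T32, 15.2 in 10-T1a and 15.8 in 10-T1b. These were above the medians of the 9013 promoters in the same lists. The 8784 regions with no TSS within 1 kb had 5.49, 8.96 and 9.23 there.

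**Figure D2:**
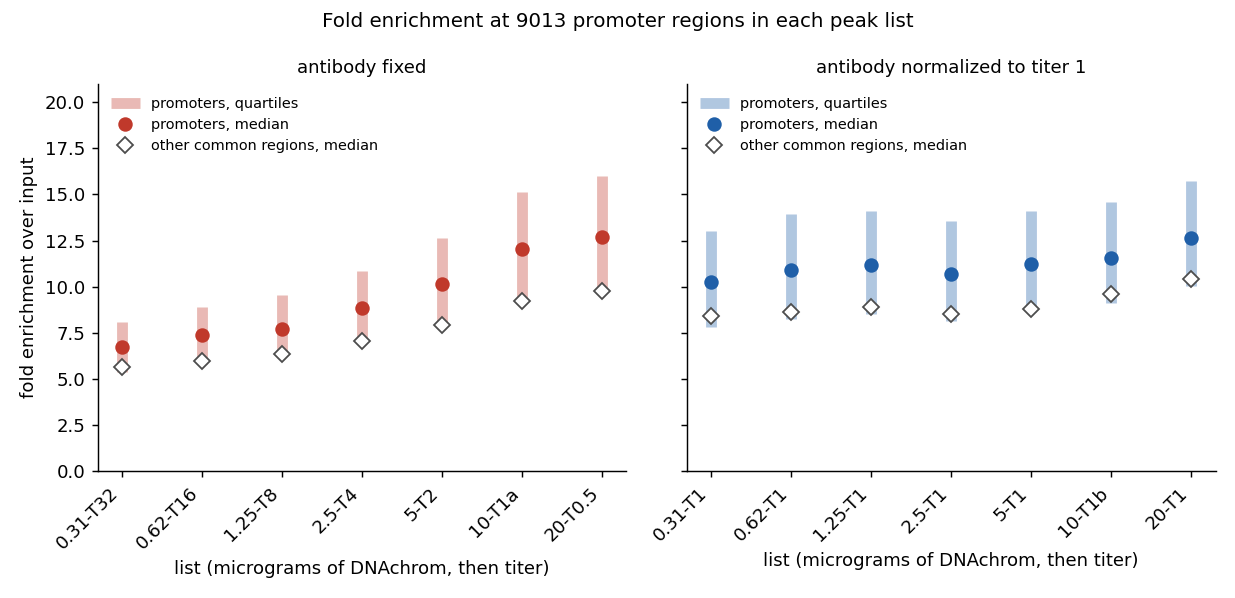
Fold enrichment over input (y axis) at the 9013 promoter regions in each of the 14 lists (x axis), with the median as a dot and the quartiles as a bar, and the median of the 9454 other common regions as an open diamond. Promoter medians run from 6.72 to 12.7 in the fixed arm and from 10.2 to 12.6 in the normalized arm.

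In single promoters the change was of the same order. From 10-T1a to 0.31-T32 the fold enrichment was lower in 8752 of 9013 promoters (97.1%), with a median ratio of 0.560. At the matched amount of 0.31 µg, 87.2% of promoters were lower at titer 32 than at titer 1, with a median ratio of 0.664. At 5 µg 62.9% were lower at titer 2 than at titer 1 and at 20 µg 49.5% were lower at titer 0.5, with median ratios of 0.903 and 1.00. Between the matched libraries 10-T1b and 10-T1a the median ratio was 0.963, and 54.5% were lower in 10-T1b. These shares were taken over promoters only. With each list centred on the median log2 value of all common regions, the median log2 difference of 0.31-T32 minus 10-T1a was -0.04. That of 0.31-T32 minus 0.31-T1 was 0.01.

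The level was higher in wider regions. Width and level come from the same peaks, the level being that of the strongest peak in the merged region, so they are not independent. The geometric mean over 14 lists had a median of 10.0, and it was 8.28 in the narrowest quartile (254 to 1674 bp) and 11.7 in the widest (3921 to 7999 bp). Of the 9013 promoters, 3863 were in the top 10% of common regions in at least 1 list, but only 28 in all 14. The top 10% held 143 promoters in all 7 fixed lists and 216 in all 7 normalized ones. These counts were not taken over all common regions.

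The 6 promoters with the highest geometric mean were those of MAT2A (20.6), THBS3 and MTX1 (20.5), ANKMY1 (20.2), ZBTB7A (19.9), the PPP1R35, MEPCE and ZCWPW1 cluster (19.8) and NUCKS1 (19.8). The ANKMY1 region lay 246 bp from the start of the gene, and its strongest summit was between -2405 and -2183 bp in all 14 lists. MAT2A makes S-adenosylmethionine, the methyl donor, and ZBTB7A is a repressor of fetal globin genes. The MAT2A region, chr2:85536323-85543791, had a lowest, median and highest fold enrichment of 11.2, 17.6 and 28.1 in the fixed arm and of 19.8, 23.3 and 27.9 in the normalized arm. ZBTB7A, chr19:4066204-4068907, had 11.9, 16.1 and 30.7 and then 18.2, 21.1 and 27.2. In both the arms overlapped, with the low fixed values at titer 4 and above.

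The 4 lowest were those of NALF1 (3.74), LY6G6F (3.83), CCDC116 (3.88) and BBLN (4.23). The values of NALF1 were 3.09 to 4.36 in the fixed arm and 3.46 to 4.15 in the normalized arm, and those of LY6G6F 2.93 to 4.48 and 3.08 to 5.11. They overlapped between the arms. Neither showed a trend over titer that passed the test, with log2 slopes of 0.02 ± 0.04 and -0.00 ± 0.04 (SE). Both were picked for a low level, and a peak was required in every list, which left little room for a fall. Over titer, 54.8% of promoters were called in the lowest quartile by level and 96.2% in the highest. Of all common regions 72.9% were called lower.

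The first question of the design is how the enrichment responded to titer when the antibody was fixed. A line of log2 fold enrichment over log2 titer was fitted to the 7 fixed libraries for each of the 18467 common regions with limma, and p-values were adjusted over all of them. The slope passed an adjusted p of 0.05 as a fall in 7277 promoters, or 80.7%, where 72.9% of all common regions were called lower. The median slope was -0.16 per doubling of titer, a decrease of 10.6%, with quartiles of -0.20 and -0.12 and a median SE of 0.05. Only 2 promoters, those of NRN1L and CCDC112, were called higher, as were 4 of the 9454 other common regions. The share called lower was 91.8% in the 670 promoter regions of 8000 bp or more and 63.5% in the 8784 common regions with no TSS within 1 kb. A promoter whose peak was lost at high titer is not among those tested, since a peak was required in every list. With all lists put on 1 distribution by quantile normalization no promoter was called by limma, 950 having an unadjusted p under 0.05.

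**Figure D3:**
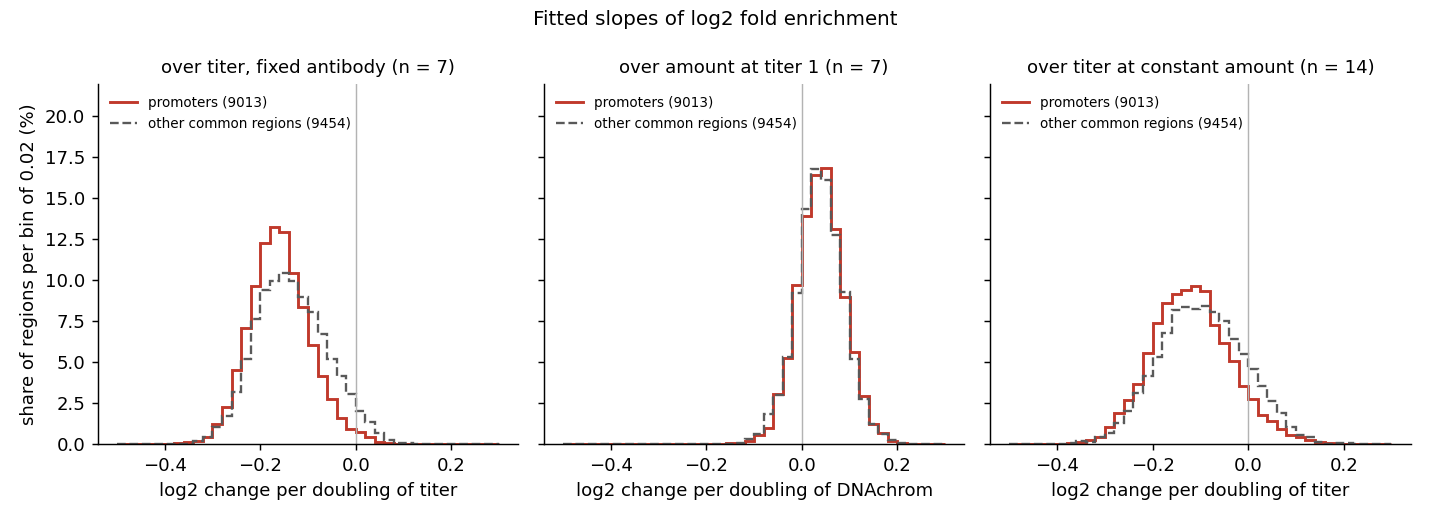
Distribution of fitted slopes of log2 fold enrichment (x axis, log2 change per doubling) as the share of regions in each bin (y axis, percent), for the 9013 promoters (solid) and the 9454 other common regions (dashed). Promoter slopes centre at -0.16 over titer in the fixed arm, at 0.04 over DNAchrom at titer 1 and at -0.12 over titer at constant amount.

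All 5 regions at the loci the study used for PCR were called lower over titer, 1 of them not without 10-T1a. ACTB (cytoplasmic beta-actin, chr7:5527751-5534389) had fold enrichments of 8.99, 10.2, 13.8, 15.4, 18.8, 18.7 and 23.6 from titer 32 to titer 0.5. Its normalized values were 20.4 to 27.9 with a median of 25.6. Every fixed value except that at titer 0.5 lay under all 7 normalized values. Its log2 slope over titer was -0.23 ± 0.03 (adjusted p = 4.51e-05, limma). The region over the SMARCA4 start went from 6.58 at titer 32 to 19.9 at titer 0.5 and lay between 11.1 and 15.7 in the normalized arm, a slope of -0.25 ± 0.04 (adjusted p = 7.17e-05). The upstream region of PABPC1 went from 9.35 to 20.1 and was 8.61 to 16.4 in the normalized arm (slope -0.19 ± 0.04, adjusted p = 0.000222). The downstream one was 6.62 to 12.7 in the fixed and 12.2 to 18.4 in the normalized arm (slope -0.13 ± 0.04, adjusted p = 0.0167), and without 10-T1a its slope was -0.10 (adjusted p = 0.0812, limma). After quantile normalization the slopes at the downstream PABPC1 region and at MAT2A were 0.04 and 0.04. GAPDH lay in a region of 8000 bp or more.

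With titer held at 1, no promoter was called over the amount of chromatin. Over the 7 normalized libraries 0 of 9013 promoters passed limma at an adjusted p of 0.05, and 0.0% of all common regions did. At an unadjusted p under 0.05 there were 1163 promoters, or 12.9%, against 12.2% of all common regions. The median slope was 0.04 per doubling of DNAchrom (quartiles 0.01 and 0.07, median SE 0.05), and the slope was above 0 in most, with 19.9% below it. The smallest adjusted p was 0.0526.

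Titer was then separated from amount in a fit over all 14 libraries with terms for the arm, DNAchrom and titer. Enrichment fell with titer at constant amount in 2464 promoters, or 27.3%, where 23.5% of all common regions were called lower. It rose in 6 promoters and in 8 of the 9454 other common regions. The median slope of the promoters was -0.12 per doubling, a decrease of 8.05% (median SE 0.07), and 91.6% of promoters had a slope below 0. Each arm was set against its own input library. A constant offset between the arms is taken up by the arm term, and any other part of the inputs in this slope cannot be told apart. The share called was 15.6% without 0.31-T1, 16.2% without 20-T0.5, 17.7% without 10-T1a and 13.3% without both 0.31 µg libraries. After quantile normalization limma called no promoter, 781 having an unadjusted p under 0.05. Of the wide promoter regions 44.3% were called lower, and 17.9% of common regions with no TSS within 1 kb. Among the PCR loci ACTB (slope -0.23 ± 0.05, adjusted p = 0.00237) and both SMARCA4 regions (adjusted p = 0.00812 and 0.0475, limma) passed, and the PABPC1 regions had adjusted p-values of 0.116 and 0.229.

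By gene group the fall over titer in the fixed arm was called for 7 of 8 chaperonin promoters, 6 of 6 helicase, 19 of 20 initiation factor, 17 of 18 synthetase, 15 of 18 spliceosome, 8 of 8 glycolysis and 7 of 8 polymerase promoters, and for 11 of 11 erythroid ones. Over all promoters 80.7% were called lower, and 72.9% of common regions. At constant amount the counts were 4, 4, 12, 10, 4, 5, 1 and 3, where 27.3% of all promoters and 23.5% of common regions were called lower. Median slopes over titer were -0.22 for the initiation factors, -0.20 for the chaperonin, the synthetases and glycolysis, -0.18 for the helicase and the spliceosome and -0.17 for the erythroid genes. The median over all promoters was -0.16, and the groups were not tested against it.

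Among these groups the strongest promoters were those of YARS1 (19.0 as geometric mean), the tyrosyl-tRNA synthetase, EIF4A1 (17.5), the RNA helicase of translation initiation, POLR2H (16.7) and the shared promoter of TCP1 and MRPL18 (16.3). EIF4A1, chr17:7572836-7575984, had fold enrichments of 8.51, 14.5 and 26.5 as the lowest, median and highest of the fixed arm and of 17.0, 20.1 and 24.6 of the normalized arm. The arms overlapped, and the slope over titer was -0.26 ± 0.03 (adjusted p = 2.25e-05, limma). EIF5, which triggers GTP hydrolysis at the start codon, had 9.27, 12.8 and 23.3 and then 13.9, 18.7 and 19.9 (slope -0.23 ± 0.04). The promoter shared by PFKM, the muscle phosphofructokinase, and SENP1 had 7.44, 13.4 and 20.95 and then 15.3, 17.5 and 22.9 (slope -0.27 ± 0.04). ALDOA, fructose-bisphosphate aldolase, ranged from 4.89 to 26.5 in the fixed arm and from 11.02 to 20.4 in the normalized arm, with a slope of -0.36 ± 0.04 (adjusted p = 1.21e-05). The remaining promoters named by rank in these groups were CCT2 (13.5), MCM4 (12.2), MCM7 (11.8), POLR2B (12.7), SNRPD1 (14.3), SNRPC (13.9), EPOR (14.3) and UROD (12.6).

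Relative to the common regions as a whole, few promoters were called. Each log2 value was centred on the median of all common regions in its list and the line over titer refitted. Then 45 promoters (0.499%) were called lower, where 0.455% of all common regions were, and 66 (0.732%) higher, where 1.75% were. The median centred slope was -0.01. An unadjusted p under 0.05 was found in 1300 promoters (14.4%), where 18.5% of all common regions had one. Without 0.31-T32, or without 20-T0.5, no promoter was called by limma, with 1055 and 986 at an unadjusted p under 0.05, and the share was 0.244% without 0.62-T16, 0.477% without the library at titer 8, 0.799% without 5-T2 and 0.166% without 10-T1a. The difference between the median log2 levels of promoters and of other common regions was 0.24 to 0.38 in the fixed and 0.27 to 0.35 in the normalized arm, with 0.38 in 10-T1a and 0.27 in 10-T1b, the same condition.

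The 5 promoters with the steepest centred fall were those of PBDC1, HNRNPU, CCNH, SAMD4B and SAP130. HNRNPU is a nuclear RNA-binding protein, CCNH the cyclin of the CDK-activating kinase and SAP130 a subunit of the SIN3 corepressor. PBDC1 had fold enrichments of 3.89, 4.27, 5.47, 8.40, 15.4, 13.5 and 17.1 from titer 32 to titer 0.5, against 8.50 to 14.1 in the normalized arm. SAP130 had 3.87, 4.83, 9.19, 9.07, 12.6, 15.7 and 17.8, against 12.0 to 17.2. Both were under every normalized value at titer 4 and above, within their range at titer 1 and above them at titer 0.5. Their centred slopes were -0.25 ± 0.05 and -0.22 ± 0.04 (adjusted p = 0.0219 and 0.0241, limma). NUCKS1, with values of 6.59 to 29.8 in the fixed arm and 20.6 to 27.3 in the normalized arm, had a centred slope of -0.19 ± 0.04 (adjusted p = 0.0285).

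The 5 with the steepest centred rise were CCDC112, NRN1L, HBM, KLK1 and LLGL2. HBM, the globin mu gene of the alpha-globin cluster (chr16:165052-167872), had 7.45, 5.79, 6.46, 7.28, 4.28, 5.69 and 4.99 from titer 32 to titer 0.5 and 6.91 to 10.2 in the normalized arm. The arms overlapped, with the higher normalized values above every fixed one, and its centred slope was 0.24 ± 0.05 (adjusted p = 0.0219, limma), with 0.09 ± 0.05 before centring (adjusted p = 0.111). CCDC112 had 6.38, 12.1, 8.21, 5.93, 7.61, 5.35 and 5.11 and 8.23 to 9.59 in the normalized arm, with a centred slope of 0.28 ± 0.06 (adjusted p = 0.0219).

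**Figure D4:**
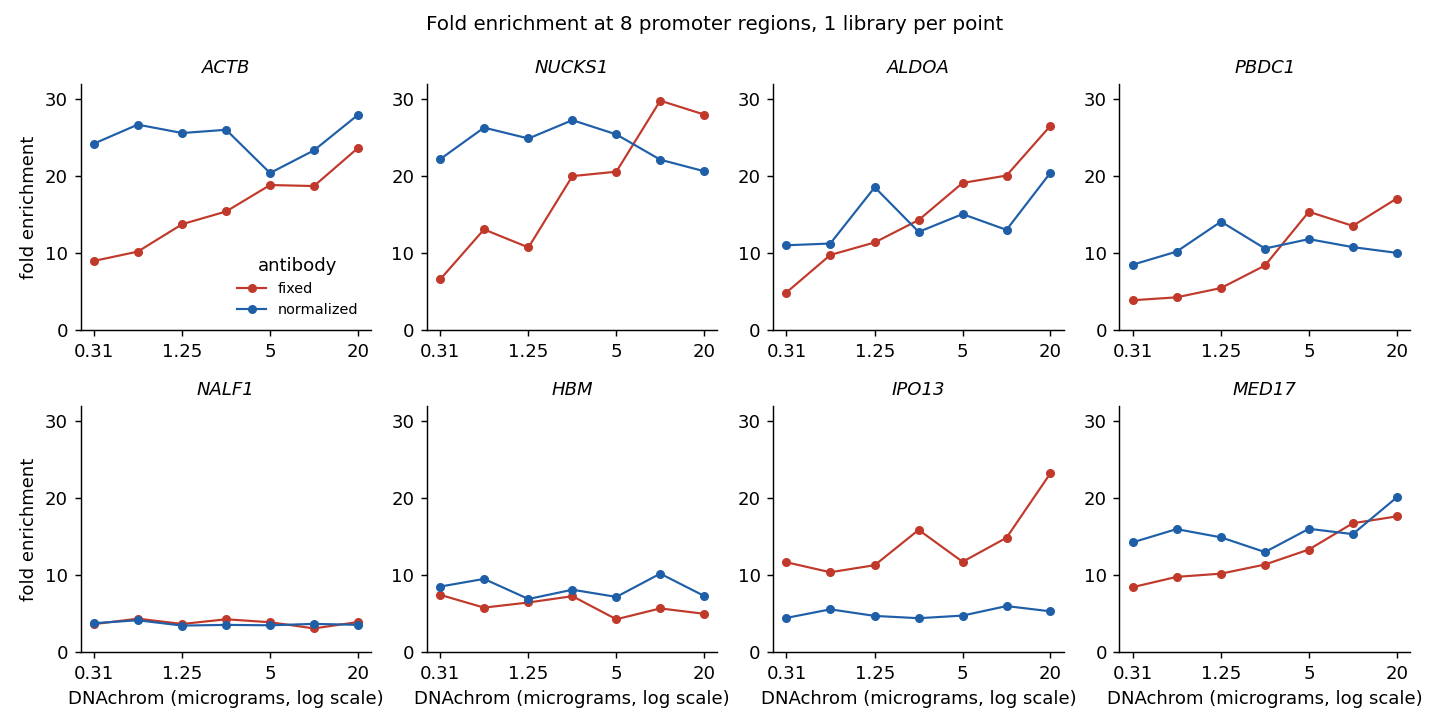
Fold enrichment (y axis) against DNAchrom (x axis, micrograms, log scale) at 8 promoters, 1 library per point, in the fixed (red) and normalized (blue) arms. ACTB, NUCKS1, ALDOA and PBDC1 climb in the fixed arm as titer falls, NALF1 stays between 3.09 and 4.36, HBM lies between 4.28 and 7.45 in the fixed arm, IPO13 is higher in every fixed library and MED17 follows the median of all common regions.

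The most stable promoters on the centred scale were those of MTMR14, MED17, CEP192 and MYDGF, with SDs over the 14 lists of 0.08, 0.10, 0.10 and 0.11. MED17, a Mediator subunit, had fold enrichments of 8.45, 11.4 and 17.6 as the lowest, median and highest of the fixed arm and of 13, 15.3 and 20.1 of the normalized arm. The median SD of a promoter was 0.29, and 0.30 for other common regions.

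The least stable were split between the arms. IPO13, an importin, had 10.4, 11.7 and 23.2 as the lowest, median and highest of the fixed arm and 4.42, 4.76 and 5.99 of the normalized arm, without overlap. DPH3 and OXNAD1 (6.57 to 13.2 against 3.54 to 4.79), FBXL18 (9.80 to 19.8 against 5.43 to 7.68) and PPP5C (10.6 to 22.1 against 6.12 to 8.37) were alike in this. All 7 fixed values were above all 7 normalized ones in 19 promoters (0.211%), where 0.206% of all common regions were, and below in 445 (4.94%), where 5.73% were. For pairs of lists within the fixed arm the SD over promoters of the log2 difference was 0.34 to 0.43 and within the normalized arm 0.35 to 0.37, while for the 49 pairs across the arms it was 0.47 to 0.52. The pair of the same condition, 10-T1a and 10-T1b, had 0.47. The centred difference between the arms had medians of 0.02, 0.03, 0.02 and 0.02 in the quartiles of promoters by GC content, from low to high. Differences between the inputs were not tested.

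The length under peaks also changed with titer. The median length covered in a promoter region was 1015, 1180, 1273, 1478, 1717, 1810 and 1808 bp from titer 32 to titer 0.5 and 1548 to 1986 bp in the normalized arm. In the fit over the fixed arm it fell with titer in 4813 promoters (53.4%), where 60.7% of all common regions were called lower. It rose in 4 promoters, those of ANO9, AP2A2, PERCC1 and ZDHHC8, and in 14 of the 9454 other common regions. The median slope of the promoters was -0.14 per doubling, a decrease of 9.19%, against -0.19 in the other common regions. The share called was 28.9% without 0.31-T32 and 34.2% without 10-T1a. At ACTB 3831 bp were covered in 0.31-T32 and 6308 bp in 10-T1a, and at EIF4A1 820 and 2636 bp. In THBS3 and MTX1, by contrast, 3520 and 4281 bp were covered and the slope did not pass the test (adjusted p = 0.088, limma).

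The composition of the promoter sequences was not used by the rule. A RefSeq window from 250 bases before to 50 after the 5′ end was found for 6645 of the 8746 genes and for 7148 other protein-coding genes. The other genes were not chosen for lacking the mark. Of all 19630 genes, 793 had a region of 8000 bp or more and 2429 had peaks that made no common region. Any of these with a window count among the others. The median GC content was 65.3% in the 6645 genes against 58.7% in the others, and the median CpG ratio 0.868 against 0.519. The ratio was over 0.6 in 89.0% against 45.3%, and under 0.3 in 3.02% against 34.6%. In quartiles of increasing level the median CpG ratio was 0.839, 0.867, 0.873 and 0.889 and the GC content 65.7%, 65.0%, 65.0% and 66.0%.

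Motifs were searched on both strands as exact letters, with overlaps allowed, and a match is a description of the letters only. The GC box, GGGCGG, was found in 73.4% of these promoters (95% Wilson interval 72.3 to 74.4%), in 44.7% of the other genes and in 58.5% of all. The ETS motif, CCGGAAG, was found in 23.4% (22.4 to 24.4%), against 6.42% of the others and 14.6% of all. The NRF1 motif, GCGCATGCG, was in 4.70% against 1.2% (all, 2.89%) and the YY1 motif, AAGATGGC, in 6.70% against 1.71% (all, 4.11%). The palindromic element, searched as TCTCGCGAG, was in 1.93% against 0.322% (all, 1.09%). The ZNF143 element, searched as CTACAATTC, was in 0.692% against 0.224% (all, 0.450%).

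The cAMP response element, TGACGTCA, was in 3.88% against 1.59% (all, 2.70%), the E-box, CACGTG, in 11% against 7.09% (all, 8.95%), and CCAAT in 39.2% against 35.2% (all, 37.1%). The TATA box, TATAAA, was rarer than elsewhere, with 5.01% (4.51 to 5.56%) against 14.7% (all, 10.0%). The GATA motif, AGATAA, was in 4.15% against 11% (all, 7.69%) and the AP-1 motif, TGAGTCA, in 2.57% against 4.64% (all, 3.65%). The intervals cover counting error only, and neighbouring genes that share a promoter share its letters.

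**Figure D5:**
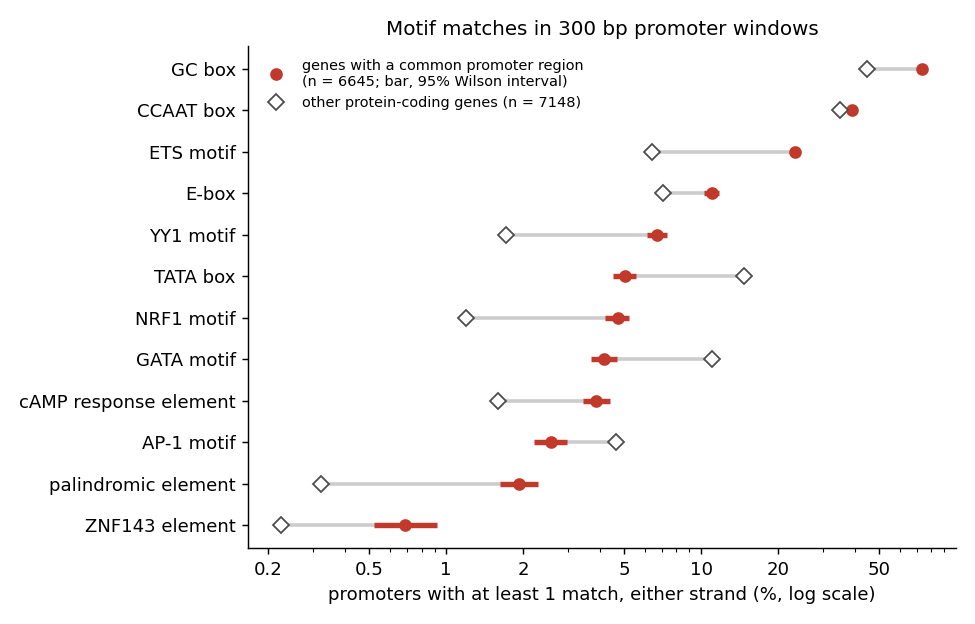
Share of promoter windows with at least 1 match to each of 12 motifs (x axis, percent, log scale) in 6645 genes with a common promoter region (dots, with 95% Wilson intervals) and 7148 other protein-coding genes (diamonds). Matches to the GC box, ETS, YY1 and NRF1 motifs are more frequent at the common promoters, and TATA, GATA and AP-1 motifs less frequent. The other genes were not chosen for lacking peaks.

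Levels were similar between promoters with different motifs, and differences were not tested. The median of the geometric mean fold enrichment was 10.5 over all 6645 genes, 11.6 with the palindromic element, 11.03 with the YY1 motif, 11.01 with the NRF1 motif, 10.9 with the TATA box and 9.58 with the ZNF143 element. Median slopes over titer lay between -0.18 and -0.16 for all 12 motifs. Matches were placed at a median of 50.5 bases before the start for the NRF1 motif, 42 for the ETS motif and 76 for the GC box, and at 14 bases after it for the YY1 motif.

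The strongest promoters with the rarer motifs included FADD (NRF1 motif, geometric mean 19.0), DUSP1 (cAMP response element, 18.9) and FEZ2 (AP-1 motif, 19.0). The others were the start between RMI1 and HNRNPK (palindromic element, 18.1) and METTL8 and DCAF17 (ZNF143 element, 15.3). For the GATA motif it was the region shared by QKI and LOC124901234 (19.5). No promoter window was found at the QKI start itself, so the match is not credited to QKI. At XPOT, whose letters are printed above, the fold enrichment was 9.04, 10.1, 9.55, 16.6, 20.96, 26.9 and 25.9 from titer 32 to titer 0.5 and 17.8 to 29.1 in the normalized arm, a slope of -0.30 ± 0.04 (adjusted p = 1.87e-05, limma). PSMB5 had 7.06 to 19.7 in the fixed and 22.7 to 30.5 in the normalized arm, without overlap, and a slope of -0.24 ± 0.04 (adjusted p = 7.61e-05). At DUSP1 the values were 11.7 to 25.3 and 17.3 to 27.8, with a slope of -0.20 ± 0.04 (adjusted p = 0.000195). The summit of FADD stayed 141 to 451 bp downstream of the start in all 14 lists, and that of MAT2A lay between -1133 and -225 bp.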

How the data were processed

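H3K27ac ChIP-seq peak lists of 14 libraries were used, 7 with fixed and 7 with normalized antibody, with groups taken from the sample titles. The submitters' processing notes name CASAVA 1.4, BWA 0.5.9 and hg38. The study's methods name hg19, but the peak positions fit GRCh38. The fold enrichment of each peak over the input of its arm, and the -log10 p and -log10 q values, are as deposited by the authors' peak caller, in 1 list per library with no pooling. Peak lists hold no read totals, so depth was not used here. The 2 input libraries have no list of their own.

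Peaks passing a -log10 q limit of 2 were joined where they overlapped or touched, and the strongest peak of a region in each list gave its fold enrichment. Each of 19630 protein-coding genes had 1 TSS, its annotated 5′ end. Its strand came from RefSeq for 15813 genes and by symbol from GENCODE for 3817. Slopes of log2 fold enrichment, or of log2 covered length, were fitted with limma 3.58.1 (R 4.3.3, empirical Bayes with a trend) and p-values adjusted by the Benjamini-Hochberg method over the 18467 common regions. A call means an adjusted p under 0.05. Tables and figures used Python 3.11.15, pandas 2.3.3 and matplotlib 3.10.9, and the fit was tested on simulated data. Promoter sequences are from RefSeq (GRCh38.p14).

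The members, gene lists and motifs were chosen with earlier results of these data known. Named promoters are the PCR loci, the 6 highest and 4 lowest levels, the 5 steepest centred falls and rises, the 4 smallest and 4 largest SDs, the 2 highest of each gene list (1 of them is not reported here), those nearest each limit and the highest for each motif under 5% frequency. XPOT and PSMB5 were added for their sequences after their values were seen. Alternatives were stricter q limits, other TSS and width limits, another summary of a region, quantile normalization, linear scales, no variance trend, the amount as a block and leaving out each library.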

Additional observations from a re-analysis of the deposited data

Results flagged for a closer look

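The slope of fold enrichment over DNAchrom differed between the arms in 2470 of the 9013 promoters (27.4%). The test was limma on the difference itself, the same coefficient as the slope over titer at constant amount (adjusted p under 0.05). This coefficient was called lower in 27.3% of promoters, where 23.5% of all common regions were called lower. It was called higher in 6 promoters and in 8 of the 9454 other common regions. In the fixed arm titer changes along with the amount, so this is a difference between the slopes of the arms. A constant offset between the arms is taken up by the arm term. Any other part of each arm's own input in this difference cannot be told apart. Of 22 series of 7 lists, none had a list that stood apart from the others.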

How the results depend on the processing

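The share of promoters called over titer was 36.7% on a linear scale of titer and 0.0% after quantile normalization (950 with an unadjusted p under 0.05), which removes any shift shared by a whole list. It was 63.8% to 80.8% when each library was left out in turn. At constant amount the share was 0.0% after quantile normalization (781 unadjusted), and, as alternatives chosen after seeing the data, 13.3% without both 0.31 µg libraries and 0.0666% on the centred scale. Leaving out each library gave 15.6% to 27.5%, the lowest without 0.31-T1, with 16.2% without 20-T0.5 and 17.7% without 10-T1a. With the arms paired by their shared DNAchrom amounts, a replicate block of 7 levels, it was 27.3%. Over DNAchrom the share was 0.0118% with a -log10 q of at least 3 and 0.0% to 0.0111% on leaving out each library, where 1 promoter was called without the normalized 2.5 µg library. The centred share, 1.23% in both directions, was 3.08% with the mean over covered bases, 0.370% with a -log10 q of at least 5, and 0.0% to 1.05% on leaving out each library. No promoter was called on this scale by limma without 0.31-T32 (1055 unadjusted) or 20-T0.5 (986 unadjusted). The covered length was called in 28.9% to 50.5%, the lowest without 0.31-T32. The number of promoter regions was 1612 when peaks had to cover at least 50% of a region in every list. The median fold enrichment as a mean over covered bases was 11.03 in 10-T1a and 10.7 in 10-T1b. After quantile normalization the slopes over titer of the downstream PABPC1 region and of MAT2A turned to 0.04 each (0.0391 and 0.0400, adjusted p = 0.798 and 0.790, limma). Other causes were not tested. Motif shares in the 150 bases before the start were lower for all 12 motifs. That window is shorter and leaves out the bases after the start.

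Each condition has 1 library. The peak lists hold no read totals, and p-values cover only the spread of single libraries around a line.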
